A study of Anguilla anguilla with 24 samples.

Results

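The comparison set the livers of 6 European eels (Anguilla anguilla) fed gold nanoparticles against the brains of the same 6 eels. Its members were the 12 libraries that the labels mark as liver or brain of exposure level NP1, out of 24 in the series, and each liver was paired with the brain of the same individual, eels 7 to 12. All 6 eels had taken in gold nanoparticles, tiny pieces of the metal, with their food over 21 days. The other 12 libraries came from the livers and brains of 6 control eels (NP0, eels 1 to 6), and they serve here only for side by side values and the test of the difference between diets. Per the labels, total RNA was isolated with the SV Total RNA kit and libraries were made with TruSeq RNA version 2. Age, sex, life stage, particle dose and tank of the eels are not stated in the labels. Each p-value of the organ comparison rests on how the liver to brain difference varied among these 6 eels. In the test between diets the control eels enter as well. All of these values describe bulk tissue, in which fewer cells of a type and less RNA per cell cannot be told apart.

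The liver makes most proteins of the blood plasma, stores and releases glucose, breaks down amino acids, forms bile acids and clears foreign compounds. In egg-laying fishes it also answers to oestrogen. The brain is built of neurons, which signal through vesicle release, ion channels and transmitter receptors, and of glia, which wrap axons and take up transmitters. Both organs also hold blood, vessel and immune cells.

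RNA was sequenced to between 50.3 and 87.6 M counted reads per liver and between 79.3 and 116 M per brain, and the brain library was the deeper one in all 6 eels. A contig is 1 assembled transcript sequence of the authors' reference, and several contigs can carry 1 gene name (apoa2.1.3 is copy 1 of 3). Reads were more concentrated in liver. The 100 most abundant contigs took from 38.8% to 43.7% of liver reads (median 41.7%) and from 13.3% to 15.7% of brain reads (median 14.3%), higher in liver in 6 of 6 eels (exact sign-flip permutation, two-sided p 0.03125, the smallest that 6 pairs can give). Brains had reads on 50382 to 50492 of the 50640 contigs and livers on 47709 to 48426. Levels below are normalised CPM, the reads of a contig relative to its library's total times a TMM scaling factor, and are not corrected for contig length.

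Most contigs differed between the organs. Of 49776 contigs tested with edgeR's quasi-likelihood test, with the eel as a block, 38240 (76.8%) passed an adjusted p of 0.05. Of these 17470 (35.1% of those tested) were higher in liver and 20770 (41.7%) in brain. A test for a change beyond 2-fold was passed by 25722 contigs (51.7%), 10863 (21.8%) higher in liver and 14859 (29.9%) in brain. In 11992 contigs (24.1%) every liver lay above every brain, and in 16114 (32.4%) every brain lay above every liver. The direction was the same in all 6 eels for 72.4% of all contigs tested. Among those that passed, which were selected by a test on the same eels, it was 92.3%. The contigs beyond 2-fold in liver took from 88.9% to 90.4% of liver reads and from 18.6% to 20.6% of brain reads. Those beyond 2-fold in brain took from 45.7% to 47.9% of brain reads and from 1.04% to 1.30% of liver reads. Both sets were chosen, with TMM, for being high in that organ, so a larger share there is partly built in. Both directions were found among contigs with and without a gene name. Of 15948 contigs that carry a gene or protein name 36.9% were higher in liver and 41.2% in brain, and of 23565 known only by a contig number 31.8% were higher in liver and 43.1% in brain.

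The size and split of these differences depend on how libraries are made comparable. TMM factors lay between 0.438 and 0.547 in livers and between 1.98 and 2.06 in brains, and with them the median log2 fold change of all contigs, liver over brain, was -0.16. With library totals in place of TMM every log2 fold change moved down by about 2, the median shifted by -2.01, and 45221 contigs passed, of which 5782 were higher in liver against 39439 in brain. Fold changes are therefore given relative to the bulk of contigs (TMM), a described contig whose direction turned with library totals is named as such, and list counts with library totals are given where contigs turned or lost the call.

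The tissue labels fitted their markers. fgg.1.2, the gamma chain of fibrinogen, which hepatocytes make, ran from 17444 to 26051 CPM in the livers (median 21639) and from 9.90 to 12.8 CPM in the brains (median 11.1). In the brains SNP25.2.2, the vesicle fusion protein SNAP-25, was found from 492 to 653 CPM (median 562) and in the livers from 4.47 to 7.33 CPM (median 5.32). The groups were far apart in both contigs, and no library stood with the other organ in either.

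The lists with the highest medians held plasma proteins made by hepatocytes. In the list of coagulation and fibrinolysis all 23 contigs passed with higher levels in liver, against 35.1% of all contigs, and the median log2 fold change was 10.72. With library totals 21 of them passed. serpind1.1.2, heparin cofactor II, an inhibitor of thrombin, ran from 3669 to 4230.2 CPM in the livers (median 3914) and from 1.54 to 1.89 CPM in the brains (median 1.64), which is a log2 fold change of 11.19 (SE 0.24, edgeR adjusted p 6.24e-09). Livers differed from each other by little in this gene, and no liver came near a brain. Plasminogen (plg), the precursor of the enzyme that dissolves clots, had 10756 ± 1377 CPM in liver and 4.91 ± 0.449 CPM in brain (log2 fold change 11.09, SE 0.28). Protein C (proc), which inactivates clotting factors, had a log2 fold change of 11.07, and the fibrinogen beta chain fgb one of 11.001.

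Complement and lipid transport followed the same direction. All 37 complement contigs were higher in liver (median 10.20), although 1 of them was higher in brain with library totals. c4, which is cleaved in the classical pathway, had 4025 ± 950.3 CPM in liver and 2.50 ± 0.235 CPM in brain, and c8g, a part of the membrane attack complex, had a log2 fold change of 10.38. c3.9.14, the central complement protein, lay from 389 to 1164 CPM in the livers (median 670.2) and from 0.277 to 0.448 CPM in the brains (median 0.324). The highest livers were those of eels 11 (1164 CPM) and 9 (1088 CPM). All 13 contigs of apolipoproteins and lipoprotein assembly were higher in liver (median 10.22). apoa4.3.4, a lipid carrier of the plasma, was among the 10 contigs that took most liver reads and lay from 8283 to 35437 CPM in the livers (median 19986) and from 8.80 to 10.7 CPM in the brains (median 9.40) (log2 fold change 10.96, SE 0.45). apoa2.1.3, another apolipoprotein, reached 34278 CPM in the liver of eel 8, where the other livers held 12229 to 17895 CPM. Its brain values stayed between 6.62 and 8.46 CPM. mttp, which loads lipid onto lipoproteins, had 151 ± 49.2 CPM in liver and 0.807 ± 0.237 CPM in brain.

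Of the 44 contigs of plasma carriers and protease inhibitors, 43 were higher in liver (median 8.73) and 1 was higher in brain. With library totals 42 were higher in liver and 1 in brain. AMBP, the precursor of the inhibitor bikunin, had 254 ± 40.8 CPM in liver and 0.115 ± 0.0346 CPM in brain, and agt, the precursor of angiotensin, had 647 ± 189 CPM in liver and 0.431 ± 0.121 CPM in brain. The exception was ttr, transthyretin, a carrier of thyroid hormone that in mammals is also made by the choroid plexus of the brain. It lay from 2.02 to 5.55 CPM in the livers (median 4.45) and from 7.19 to 80.4 CPM in the brains (median 9.97) (log2 fold change -1.83, SE 0.40, adjusted p in edgeR 0.00208). The brain of eel 10 held 80.4 CPM and the other 5 brains between 7.19 and 15.4 CPM, and every brain lay above every liver.

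**Figure D1:**
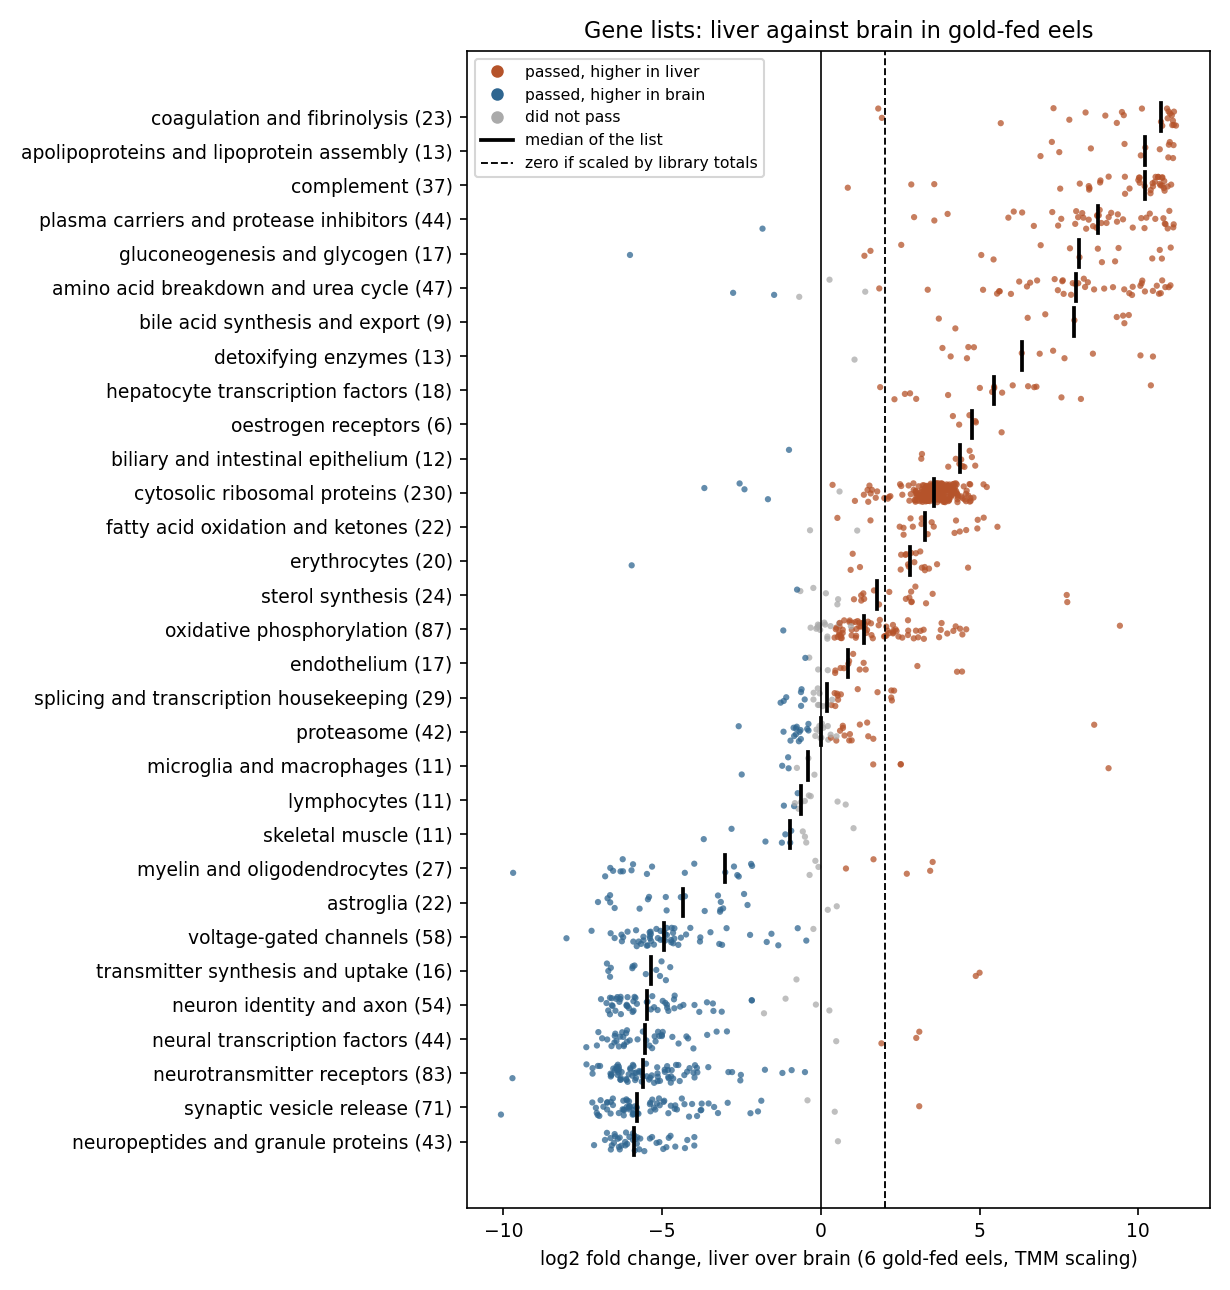
Each point is 1 contig of a gene list (number of contigs tested in brackets) at its log2 fold change, liver over brain, in 6 gold-fed eels. Colours give the direction of contigs that passed and grey those that did not, bars are list medians, and the dashed line at 2.01 is where zero would lie with library totals, a scaling that turns the medians of sterol synthesis, oxidative phosphorylation, endothelium, housekeeping and proteasome towards brain.

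Metabolic enzymes of the liver came next. Of 47 contigs of amino acid breakdown and the urea cycle, 42 were higher in liver (median 8.02) and 2 in brain, or 41 and 4 with library totals. pah.2.2, phenylalanine hydroxylase, had 997 ± 312 CPM in liver and 0.581 ± 0.184 CPM in brain, hal.1.3, histidine ammonia lyase, had 617 ± 164 CPM in liver and 0.511 ± 0.0866 CPM in brain, and agxt, which detoxifies glyoxylate, reached a log2 fold change of 11.01. The members with higher levels in brain were asl, argininosuccinate lyase (log2 fold change -1.47, SE 0.19), and arg2, the mitochondrial arginase (log2 fold change -2.76, SE 0.36). In asl the livers lay from 3.28 to 9.34 CPM (median 5.66) and the brains from 13.2 to 16.8 CPM (median 15.6), without overlap.

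Glucose release showed a similar pattern, with 16 of 17 contigs higher in liver (median 8.15), or 14 in liver and 3 in brain with library totals, so that 2 turned. g6pc.1.2, the catalytic subunit of glucose-6-phosphatase, the last step of glucose release, lay from 67.6 to 156 CPM in the livers (median 108) and from 0.0446 to 0.0844 CPM in the brains (median 0.0585) (log2 fold change 10.68, SE 0.26). fbp1b, a fructose bisphosphatase, had 2443 ± 482 CPM in liver and 1.74 ± 0.263 CPM in brain, and pck2, a phosphoenolpyruvate carboxykinase, had 3168 ± 743 CPM in liver and 1.81 ± 0.187 CPM in brain. The 2 contigs named for slc37a4, the transporter that brings glucose-6-phosphate to that phosphatase, went opposite ways. slc37a4.2.2 lay from 642 to 1080.5 CPM in the livers (median 779.6) and from 16.4 to 20.8 CPM in the brains (median 18.1) (log2 fold change 5.44, SE 0.19), and slc37a4.1.2 lay from 0 to 0.652 CPM in the livers (median 0.344) and from 17.1 to 23.8 CPM in the brains (median 18.1) (log2 fold change -6.01, SE 0.43). slc37a4.2.2 was read out after its values were seen, and whether the contigs are copies of the gene or pieces of 1 transcript is not stated in the labels.

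Fatty acid oxidation was higher in liver in 20 of 22 contigs, with a smaller median of 3.27. With library totals 16 were higher in liver and 3 in brain. acox3, a peroxisomal oxidase, had 349 ± 103 CPM in liver and 7.11 ± 0.474 CPM in brain (log2 fold change 5.56, SE 0.23), and hadha, a subunit of the mitochondrial trifunctional protein, had 152 ± 23.6 CPM in liver and 20.2 ± 1.98 CPM in brain (log2 fold change 2.90, SE 0.14). thrsp.2.2, a factor of fat synthesis, was among the 10 contigs that took most liver reads and lay from 6316 to 39646 CPM in the livers (median 14608) and from 11.7 to 14.2 CPM in the brains (median 12.1). Its level was 37534 and 39646 CPM in the livers of eels 7 and 8 and 6316 CPM in that of eel 12.

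Sterol genes were less one-sided. Of 24 contigs 18 were higher in liver, 1 was higher in brain and 5 did not pass, and the median of 1.76 turned to -0.26 with library totals. With that scaling 9 were higher in liver and 7 in brain. ldlr.2.3, the LDL receptor, stood at 253 ± 94.8 CPM in liver and 1.13 ± 0.186 CPM in brain (log2 fold change 7.75, SE 0.29). msmo1, a methylsterol oxidase, was at 1071 CPM in the liver of eel 11 and at 52.7 to 177 CPM in the other livers. fdft1.2.2, squalene synthase, likewise stood at 214 CPM in the liver of eel 11 and at 16.1 to 37.2 CPM in the rest, and its log2 fold change of 1.05 turned to -0.97 with library totals and did not pass without eel 7, 8, 9 or 10. Both of these, and gata4 and wap65-2.2.2 below, were named after their values were seen.

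Bile acid and detoxifying genes were higher in liver throughout or nearly so. All 9 bile acid contigs passed (median 7.99). nr1h4.2.3, the bile acid receptor FXR, had 220.0 ± 46.5 CPM in liver and 0.898 ± 0.343 CPM in brain, and abcg8 and abcg5, the subunits of a sterol exporter, had log2 fold changes of 9.52 and 9.70. Of 13 detoxifying contigs 12 passed (median 6.33). CP3AR, a cytochrome P450 of family 3A, had 933 ± 316 CPM in liver and 0.639 ± 0.0820 CPM in brain, and mgst1, a microsomal glutathione transferase, had 1548 ± 242 CPM in liver and 19.1 ± 2.09 CPM in brain.

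Regulators of hepatocytes were higher in liver in all 18 contigs (median 5.46), and in 16 with library totals. gata6 had 216 ± 43.3 CPM in liver and 0.162 ± 0.0490 CPM in brain (log2 fold change 10.40, SE 0.20) and FOXA2 had 25.9 ± 4.38 CPM in liver and 0.515 ± 0.190 CPM in brain. gata4, another factor of the liver lineage, was 229.6 CPM in the liver of eel 8 and 47.5 to 55.7 CPM in the other livers. Of a list of egg yolk, egg coat and oestrogen receptor genes the 6 contigs tested were all oestrogen receptors (esr1 and ESR2), and yolk and egg coat genes are not analysed here. All of them were higher in liver, and esr1, through which oestrogen switches on yolk protein in fish liver, lay from 11.98 to 80.5 CPM in the livers (median 33.3) and from 0.938 to 1.51 CPM in the brains (median 1.26) (log2 fold change 4.86, SE 0.43).

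In brain the genes of signalling between neurons were higher. Every contig of neurotransmitter receptors, 83 of 83, was higher in brain, against 41.7% of all contigs, with a median log2 fold change of -5.60. gria2.3.3, an AMPA receptor subunit for glutamate, lay from 1.21 to 1.72 CPM in the livers (median 1.43) and from 123 to 150.1 CPM in the brains (median 135) (log2 fold change -6.54, SE 0.16, adjusted p in edgeR 6.24e-09). The NMDA receptor subunit grin1b had 1.03 ± 0.203 CPM in liver and 84.6 ± 16.1 CPM in brain (log2 fold change -6.35, SE 0.16). Among 58 voltage-gated channel contigs, which carry the currents of action potentials and release, 57 were higher in brain (median -4.94), for example the calcium channel subunits cacna1e.2.4 (-5.90) and CACNB4 (-6.09).

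Of 71 contigs of synaptic vesicle release, 68 were higher in brain (median -5.78). syn2.4.4, synapsin, which tethers vesicles, lay from 0.717 to 1.46 CPM in the livers (median 0.918) and from 103 to 149 CPM in the brains (median 132) (log2 fold change -7.02, SE 0.19, adjusted p in edgeR 6.75e-09). SNP25.2.2 stood at a log2 fold change of -6.73, and VGLU2, which fills vesicles with glutamate, one of -6.73, with 2.83 ± 0.571 CPM in liver and 299 ± 38.5 CPM in brain. The exception was stx1a.2.2, a syntaxin contig at low level, with 7.12 ± 1.86 CPM in liver and 0.958 ± 0.664 CPM in brain (log2 fold change 3.10, SE 0.44).

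Transmitter synthesis and uptake held 13 contigs higher in brain and 2 higher in liver of 16. gad2.1.2, which makes the inhibitory transmitter GABA, lay from 2.48 to 3.68 CPM in the livers (median 2.99) and from 233 to 350.5 CPM in the brains (median 313), and the GABA transporter slc6a11 had a log2 fold change of -6.74. ache, which splits acetylcholine, had 0.987 ± 0.178 CPM in liver and 32.8 ± 1.48 CPM in brain (log2 fold change -5.06, SE 0.15). The contigs higher in liver break transmitters down. AOF.1.2, a monoamine oxidase, had 155 ± 67.9 CPM in liver and 4.99 ± 1.27 CPM in brain (log2 fold change 4.88, SE 0.32), and comt, catechol methyltransferase, had a log2 fold change of 5.001. Levels of comt in liver split the eels, with 13.7, 8.61 and 12.5 CPM in eels 7, 9 and 10 and 0.0289 to 0.365 CPM in the others, and the brains of the same 3 eels were also highest at 0.229 to 0.387 CPM.

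Neuropeptides and the proteins of their granules were higher in brain in 42 of 43 contigs (median -5.88). The opioid precursor penk had 0.955 ± 0.0597 CPM in liver and 51.3 ± 11.1 CPM in brain (log2 fold change -5.72, SE 0.18), adcyap1.1.2, the precursor of PACAP, had 0.954 ± 0.254 CPM in liver and 56.8 ± 3.72 CPM in brain, and the granule protein chgb.2.3 a log2 fold change of -6.49. Neuron identity and axon contigs were higher in brain in 50 of 54 (median -5.47). map2.4.4, a microtubule protein of dendrites, had 0.402 ± 0.0794 CPM in liver and 35.7 ± 7.27 CPM in brain (log2 fold change -6.47, SE 0.17). Of 44 contigs of neural transcription factors 40 were higher in brain (median -5.55), such as SOX2 of neural progenitors (log2 fold change -6.10, SE 0.20) and neurod2.1.2 of neurons (log2 fold change -6.49, SE 0.23). The 3 that were higher in liver all carried the name of the homeobox gene hoxb5. One of these, HXB5, had 1.15 ± 0.326 CPM in liver and 0.201 ± 0.195 CPM in brain (log2 fold change 3.01, SE 0.71) and did not pass with library totals, when 0 contigs of the list were higher in liver.

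Glia were represented as well. Astroglial contigs were higher in brain in 20 of 22 (median -4.34). GFAP, the filament protein of astroglia, lay from 1.65 to 2.53 CPM in the livers (median 1.96) and from 163 to 262 CPM in the brains (median 197) (log2 fold change -6.63, SE 0.23, adjusted p in edgeR 1.59e-08). s100b.2.5, a calcium-binding protein of glia, was 454 CPM in the brain of eel 7 and 114 to 230.1 CPM in the other brains. Of 27 myelin and oligodendrocyte contigs 19 were higher in brain and 5 in liver (median -3.01), or 23 and 2 with library totals. olig2, a transcription factor of oligodendrocytes, had 0.412 ± 0.112 CPM in liver and 38.5 ± 5.90 CPM in brain (log2 fold change -6.54, SE 0.22). gpm6a, a membrane protein of the proteolipid family that is not specific to myelin, had 1.75 ± 0.446 CPM in liver and 191 ± 11.2 CPM in brain. Contigs named cnp, for an enzyme of myelin, went both ways. cnp.2.3 had a log2 fold change of -4.28 and cnp.3.3 one of 3.52.

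Among contigs that were higher in brain, the one that took most reads there was ALDCB, named for aldolase C, which splits a sugar phosphate in glycolysis. It lay from 10.5 to 16.9 CPM in the livers (median 12.1) and from 1268 to 1428 CPM in the brains (median 1358) (log2 fold change -6.77, SE 0.21). AT1A1.1.2, a subunit of the sodium pump that keeps the ion gradients of cells, came next with 234 ± 43.3 CPM in liver and 1047 ± 65.3 CPM in brain (log2 fold change -2.18, SE 0.18). ALDOC, a second contig named for that enzyme, ranged from 14.5 to 218 CPM (median 179) in the brains, with 14.5 CPM in eel 12 and 130.2 CPM or more in the other 5. In liver it lay from 0.723 to 1.79 CPM (median 1.68).

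The largest fold changes of contigs at high level lay close together. Of 1414 contigs whose mean reached 100 CPM, 295 had a log2 fold change above 10 and the highest was 11.7, while 63 lay below -6 and the lowest was -6.92. Over all contigs tested, most of them at lower levels, the values ran from -11.91 to 11.71. As a share of library totals, 63 contigs of the plasma protein lists with at least 200 CPM in liver stood in brain at a median of 0.217% to 0.427% of their level in the liver of the same eel. The 103 contigs of the neuron, synapse, receptor and neuropeptide lists with at least 50 CPM in brain stood in liver at 0.321% to 0.384% of their level in the brain of the same eel. On the normalised scale used for the other levels these shares were 0.0539% to 0.102% for the plasma protein contigs in brain and 1.27% to 1.60% for the neuron contigs in liver, so the likeness of both directions holds for library totals alone. prss59.1, a trypsin-like protease, was 10484 CPM in the liver of eel 9 and 1.79 to 65.2 CPM in the others, and from 0.268 to 0.357 CPM in the 6 brains, with 0.318 CPM in that of eel 9. In this contig the liver of eel 9 was set apart and its brain was not. The source of these low levels was not tested.

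**Figure D2:**
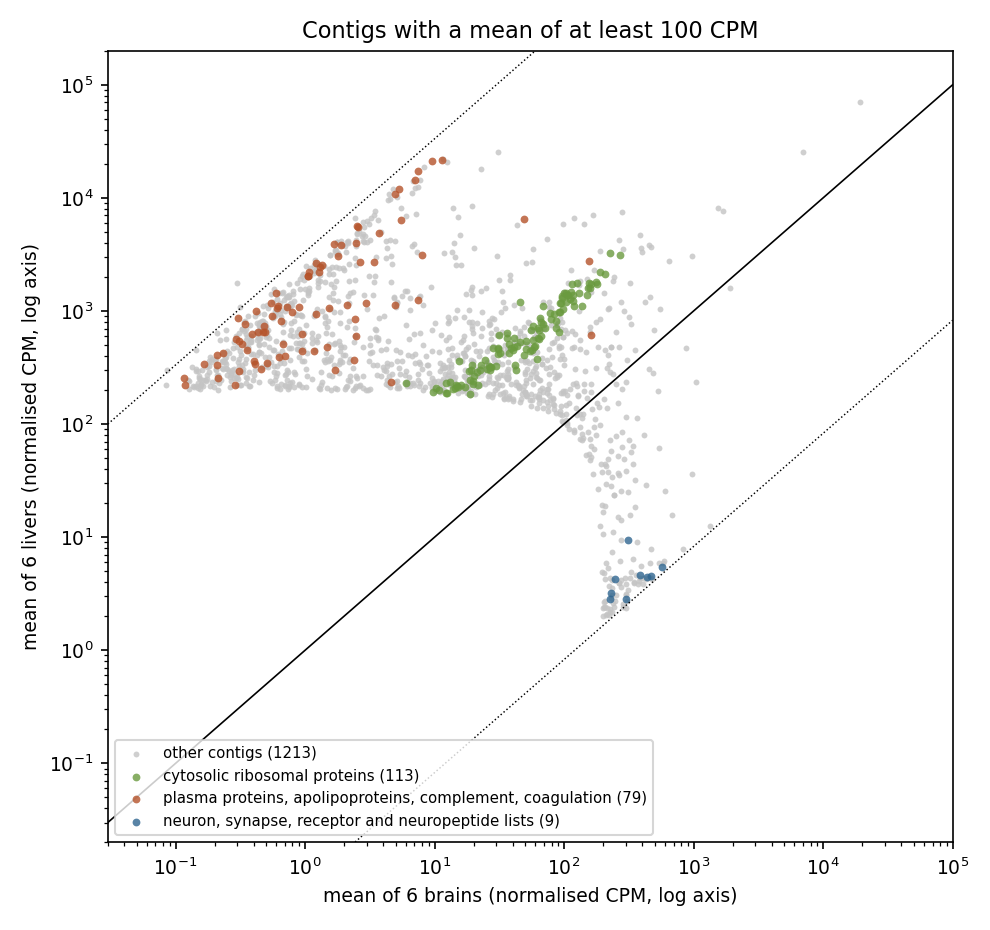
Mean normalised CPM of 6 livers (vertical, log axis) against that of 6 brains (horizontal, log axis) for 1414 contigs whose mean reached 100 CPM. The solid line marks equal levels and the dotted lines the highest and lowest log2 fold change among these contigs, 11.7 and -6.92. Many plasma protein contigs lie near the upper line and the contigs of the neuron lists lie near the lower one.

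Several enzymes and carriers exist in forms that mammals use in different organs, and the forms were compared pair by pair. Of 11 pairs measured, 5 had the first form higher in liver and the second higher in brain. The glucose transporter slc2a2 of liver lay from 361 to 704 CPM in the livers (median 537) and from 3.81 to 5.56 CPM in the brains (median 4.23) (log2 fold change 6.93, SE 0.23), and gtr3, the neuronal type, lay from 1.53 to 4.69 CPM in the livers (median 2.66) and from 16.2 to 25.8 CPM in the brains (median 17.96) (log2 fold change -2.82, SE 0.26). Of the glutaminases, which release glutamate from glutamine, gls2 had a log2 fold change of 7.47 and gls one of -5.51. Glycogen synthase gys2 had 128 ± 15.1 CPM in liver and 0.209 ± 0.0454 CPM in brain and its muscle form gys1 had 2.44 ± 0.552 CPM in liver and 3.50 ± 0.326 CPM in brain. The acyl-CoA synthetases ACSL1 and acsl6, which activate fatty acids, had log2 fold changes of 8.99 and -3.53, and the arginases arg1 and arg2 had 5.64 and -2.76.

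Other pairs did not divide in this way. Both forms of lactate dehydrogenase, LDHA (-5.47) and LDHB.2.2 (-2.97), were higher in brain. The same held for the phosphofructokinases pfkl (-2.55) and Pfkp (-4.80) and for the sodium pump subunits AT1A1.1.2 (-2.18) and AT1A3 (-3.61). Glycogen phosphorylase pygl was higher in liver (log2 fold change 5.05, SE 0.16), while pygb, the brain form in mammals, did not pass (log2 fold change 0.10, SE 0.17, edgeR adjusted p 0.612) and had 8.74 ± 3.55 CPM in liver and 7.71 ± 1.69 CPM in brain. With library totals pygb was lower in liver (-1.91). Of the fatty acid binding proteins, FABPL of liver was higher there (log2 fold change 7.56, SE 0.41) and fabp7.1.4, of brain in mammals, did not pass (log2 fold change 0.50, SE 0.33) except without eel 12 (0.77), with -1.51 under library totals. That contig had the highest level of 4 named fabp7, and the others did not go 1 way, with fabp7.4.4 (-5.41) and fabp7.3.4 (-4.86) higher in brain and fabp7.2.4 (0.22) not passing, of which the last 2 were added after their values were seen. Library totals, which move values down by about 2, put fabp7.2.4 below zero as well. Of the enolases, glycolytic enzymes, eno2, the neuronal form, was higher in brain (log2 fold change -5.93, SE 0.40), and ENOA did not pass (log2 fold change -0.16, SE 0.17), with -2.17 under library totals. ENOB, an enolase contig outside the pairs that was named after its values were seen, averaged 4065 CPM in liver and 2.85 CPM in brain (log2 fold change 10.4).

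**Figure D3:**
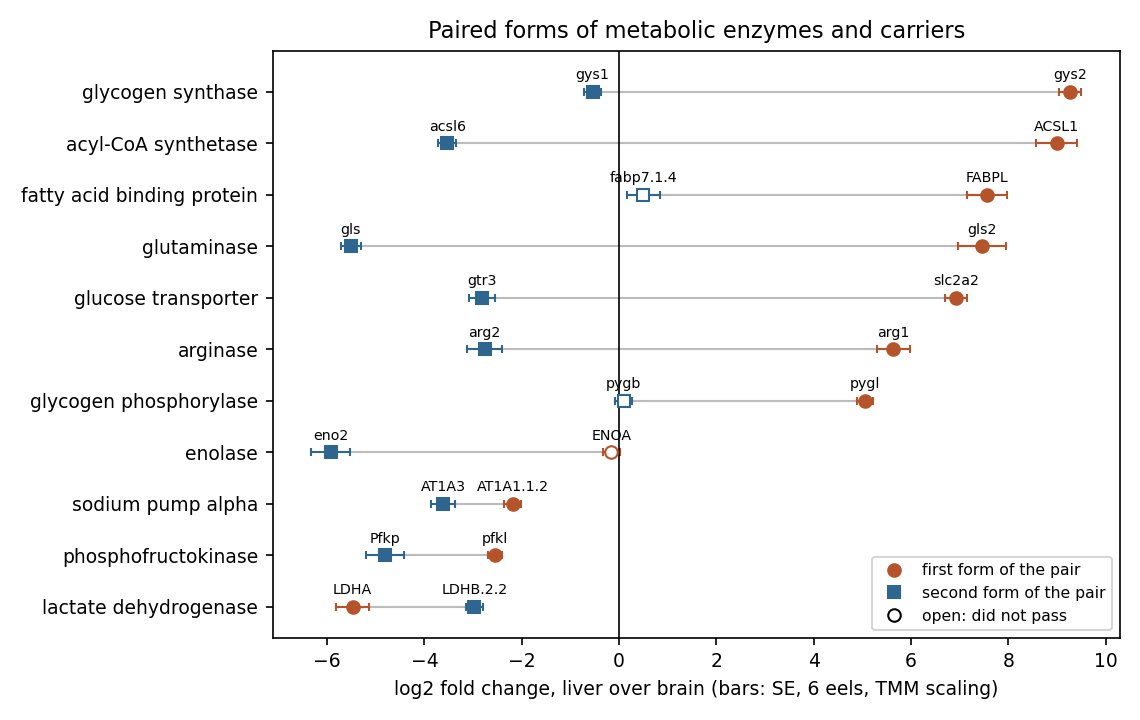
Log2 fold change, liver over brain, in 6 gold-fed eels, with the SE derived from the edgeR test, for the contig of highest level of each form in 11 pairs. The 5 pairs of glycogen synthase, acyl-CoA synthetase, glutaminase, glucose transporter and arginase reach from brain to liver, and with library totals all points would lie about 2 further towards brain, which puts pygb and fabp7.1.4 below zero.

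Machinery shared by all cells was also unequal. Of 230 contigs of cytosolic ribosomal proteins 225 were higher in liver (median 3.58). With library totals 210 were higher in liver and 9 in brain (median 1.57). They took from 3.29% to 6.54% of liver reads and from 1.47% to 1.77% of brain reads. RS27A.1.4, a protein of the small subunit, had 217 ± 32.7 CPM in liver and 14.8 ± 1.12 CPM in brain (log2 fold change 3.86, SE 0.15), and RS10.1.3 had a log2 fold change of 3.92. The 4 that were higher in brain with TMM carried the names rl4a and RS4X, such as rl4a.3.3 with 10.8 ± 5.56 CPM in liver and 57.8 ± 8.36 CPM in brain (log2 fold change -2.56, SE 0.26).

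Respiration genes were higher in liver relative to the bulk of contigs, with 73 of 87 passing in that direction and a median of 1.36. With library totals, however, 20 were higher in liver and 47 in brain (median -0.65). The highest log2 fold change of the list, 9.42, was that of a contig labelled nduc2, with 25521 CPM in liver and 30.9 CPM in brain. That liver level is unusual for the list, in which ATPB.1.2, for example, averaged 1755 CPM in liver. Whether the label nduc2 names the right gene was not checked. ndufs3, a nuclear-coded subunit of complex I, had 115 ± 12.02 CPM in liver and 17.1 ± 0.901 CPM in brain (log2 fold change 2.75, SE 0.13), and ndufs5 was higher in brain (log2 fold change -1.18, SE 0.15). The mitochondrial contig ND5 took the most reads in both organs, 3.52% of liver and 3.87% of brain reads. Its log2 fold change of 1.90 (SE 0.25) turned to -0.11 with library totals. Of 42 proteasome contigs 14 (33.3%) were higher in liver and 15 (35.7%) in brain (median 0.02), near the 35.1% and 41.7% of all contigs. With library totals 1 was higher in liver and 41 in brain. Genes of splicing and general transcription had 13 contigs (44.8%) higher in liver and 7 (24.1%) in brain of 29 (median 0.21). With library totals 0 of them were higher in liver and 24 in brain (median -1.80). The common reference gene hprt1, of purine salvage, was not even between the organs, with 152 ± 47.6 CPM in liver and 29.5 ± 2.08 CPM in brain (log2 fold change 2.31, SE 0.21), and did not pass with library totals. Of 30 named contigs that averaged 200 CPM or more in both organs, H33.2.5, histone H3.3, was one of those that did not pass, with 225 ± 15.8 CPM in liver and 253 ± 30.1 CPM in brain (log2 fold change -0.16, SE 0.13, adjusted p in edgeR 0.260), and with library totals it was lower in liver (-2.18).

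Bulk samples also hold blood, vessel, epithelial and immune cells. Most contigs listed for red cells, vessels and epithelium were higher in liver with TMM, against 35.1% of all contigs. Erythrocyte contigs were higher in liver in 19 of 20 (median 2.81), and they took from 0.0472% to 0.274% of liver reads and from 0.0478% to 0.181% of brain reads, ranges that overlap. With library totals 11 were higher in liver and 4 in brain. HEM0.2.2, the erythroid enzyme that starts haem synthesis, had 77.6 ± 14.1 CPM in liver and 3.13 ± 0.752 CPM in brain (log2 fold change 4.64, SE 0.17), and B3AT, the anion exchanger of red cells, lay from 8.05 to 42.9 CPM in the livers (median 28.5) and from 1.58 to 6.52 CPM in the brains (median 3.05). Endothelial contigs were higher in liver in 13 of 17 (median 0.87), yet with library totals 3 were higher in liver and 14 in brain. vwf, the clotting factor stored by vessel walls, had 226 ± 88.4 CPM in liver and 11.1 ± 1.72 CPM in brain (log2 fold change 4.29, SE 0.22) and was highest in the liver of eel 9 at 397 CPM. cldn5, a junction protein that in mammals marks the barrier vessels of brain, was also higher in liver (log2 fold change 4.45, SE 0.35). Contigs listed for bile duct and gut epithelium were higher in liver in 11 of 12 and in brain in 1. One of the 11 was vil1, villin of the bile canaliculus and gut (log2 fold change 4.86, SE 0.23). Whether these contigs came from hepatocytes or from other epithelial cells was not tested.

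With TMM the macrophage contigs divided. Of 11, 4 were higher in liver and 4 in brain (median -0.39), 36.4% each, near the 35.1% and 41.7% of all contigs. With library totals 1 was higher in liver and 7 in brain (median -2.40). mrc1, the mannose receptor, lay from 0.434 to 3.36 CPM in the livers (median 2.08) and from 7.65 to 11.9 CPM in the brains (median 9.75) (log2 fold change -2.49, SE 0.30), and csf1r, the growth factor receptor of the lineage, was higher in brain (log2 fold change -1.22, SE 0.34). cd68.1.2, a lysosomal protein of macrophages, was higher in liver (log2 fold change 2.52, SE 0.36) and did not pass with library totals, and mpeg1, a pore protein of macrophages (log2 fold change 1.65, SE 0.40), turned to -0.37. Of 11 lymphocyte contigs 3 (27.3%, against 41.7% of all contigs) were higher in brain, all named ptprc (CD45, on all white cells). The other 8 (72.7%, against 23.2% of all contigs) did not pass, whereas with library totals 11 of the 11 were higher in brain. ptprc.2.6 lay from 3.75 to 15.1 CPM in the livers (median 5.94) and from 2.76 to 26.7 CPM in the brains (median 17.3) (log2 fold change -1.16, SE 0.34, adjusted p in edgeR 0.0111). The brain of eel 10, at 2.76 CPM, was the lowest of all 12 libraries in this contig. The part of these cell types in the organ differences above was not tested.

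Genes of metal and iron handling were examined because the eels had eaten a metal. MTA, metallothionein, which binds metal ions, was 699, 2348, 739, 836, 939 and 874 CPM in the livers of eels 7 to 12 and 60.4 to 89.6 CPM in the brains (log2 fold change 3.63, SE 0.26, adjusted p in edgeR 1.13e-06). The liver of eel 8 stood above the other 5, and no liver overlapped with a brain. In the control eels the log2 fold change of MTA was 4.20, and the difference of -0.56 (SE 0.35) between the diets did not pass (edgeR adjusted p 0.730). FRIM.2.2, a ferritin subunit that stores iron, had 612 ± 249.5 CPM in liver and 31.5 ± 3.52 CPM in brain (log2 fold change 4.18, SE 0.28), and TRFE.1.5, transferrin of the plasma, had log2 fold change 9.83 with liver levels from 152 to 2501 CPM (median 895). hmox1, the inducible haem oxygenase, had 10.4 ± 3.76 CPM in liver and 0.0566 ± 0.0344 CPM in brain (log2 fold change 7.55, SE 0.31), whereas hmox2, the constant form, was slightly higher in brain (log2 fold change -0.41, SE 0.13), a call that was lost without eel 12.

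Livers varied more from eel to eel than brains. Over 28135 contigs that averaged 1 CPM or more in both organs, the SD of log2(CPM + 0.5) over 6 eels had a median of 0.375 in liver and 0.224 in brain and was larger in liver for 79.0% of contigs. In single livers, wap65-2.2.2, a haem-binding plasma protein of fish, ran from 403 CPM in eel 10 to 30301 CPM in eel 9, FUCL5.1.4, a fucose-binding lectin of eel serum, from 5.61 CPM in eel 8 to 4605 CPM in eel 11, and LYSC.1.2, lysozyme, from 0.772 CPM in eel 12 to 908 CPM in eel 9. Liver 9 was also highest in HV320, an immunoglobulin heavy chain, at 1848 CPM against 2.69 to 14.6 CPM, while its brain values ran from 1.42 to 160.2 CPM (median 48.3). The same liver led in cbpb1, a carboxypeptidase of the pancreas, at 816 CPM against 1.60 to 4.54 CPM. cbpb1 was the 1 contig of the pancreas list that was tested and did not pass (log2 fold change 1.48, SE 0.98, adjusted p in edgeR 0.194), while without eel 9 it passed at 0.80, and with library totals its value turned to -0.52. prss59.1 passed with a log2 fold change of 5.11 (SE 1.44), which was 4.29 without eel 9 and 5.79 without eel 7, and it did not pass with library totals. The part of pancreatic tissue in liver 9 was not tested.

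Among brains, NEU3, named for a precursor of the oxytocin type, was 122 CPM in eel 8 and 0.216 CPM in eel 12, so that its log2 fold change of -5.23 had an SE of 1.48 and moved between -4.52 without eel 11 and -6.15 without eel 12. A different pattern was shared by both organs of an eel. oncmyk-uba.8.29, a class I MHC contig, which presents peptides to T cells and is highly variable between animals, was 5.43, 12.5, 254, 1.74, 94.5 and 502 CPM in the livers of eels 7 to 12 and 2.40, 6.21, 184, 0.975, 35.8 and 219 CPM in their brains. The order of the eels was the same in both organs, while the groups overlapped. Its log2 fold change was 1.02 (SE 0.16), or -0.997 with library totals, and it did not pass without the eel as a block. RS15A, a ribosomal protein contig, was 1.09 and 1.13 CPM in the livers of eels 9 and 7 and 25.8 to 242 CPM in the other livers, and the brains of eels 7 and 9 were again lowest, at 0.116 and 0.135 CPM.

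**Figure D4:**
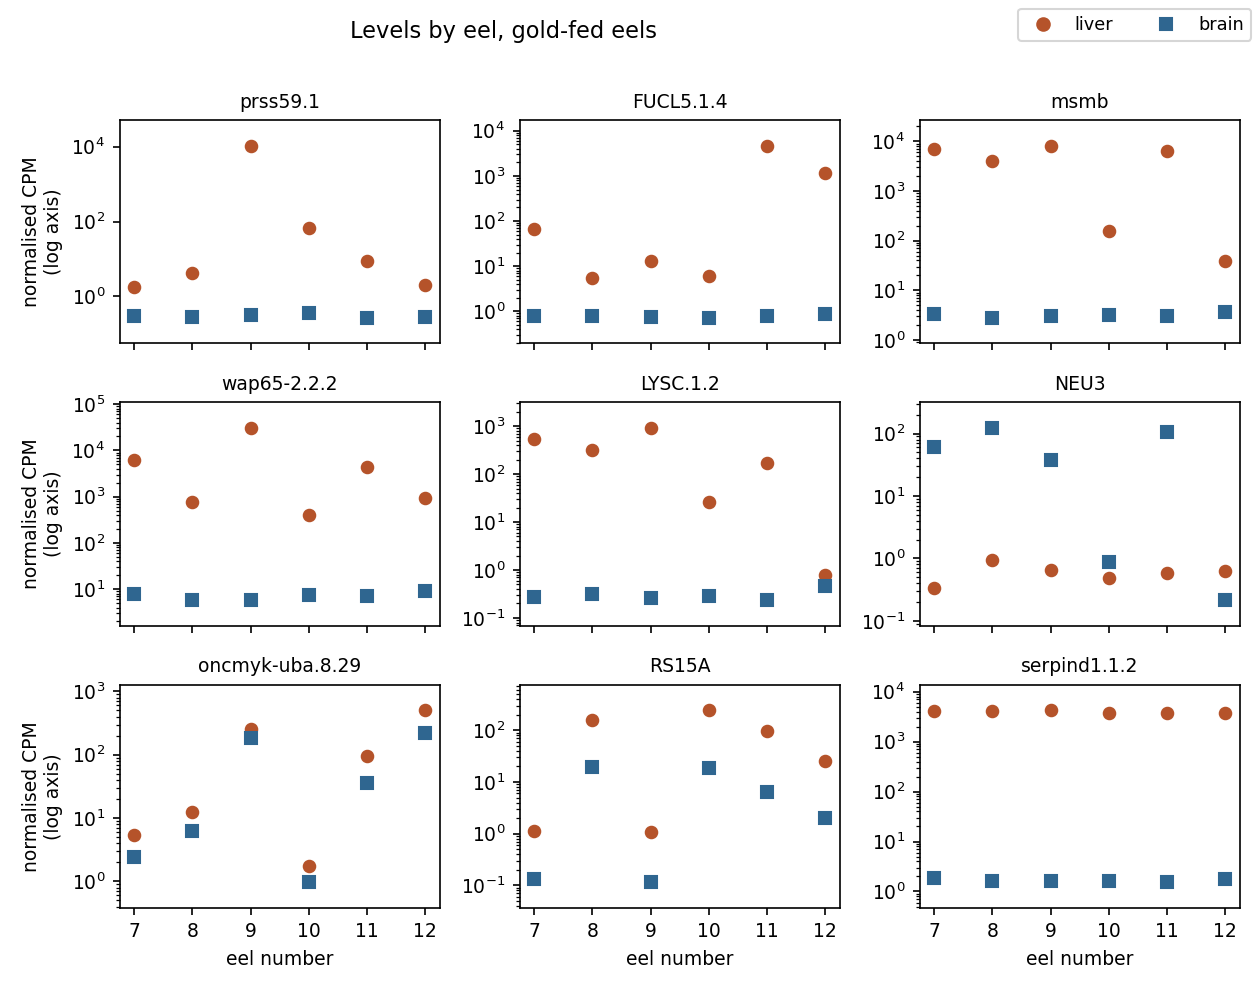
Normalised CPM (vertical, log axis) of 9 contigs in the liver and brain of each gold-fed eel (horizontal, eel number). prss59.1, FUCL5.1.4, msmb, wap65-2.2.2 and LYSC.1.2 varied widely between livers and less between brains, NEU3 varied between brains, oncmyk-uba.8.29 and RS15A varied with the eel in both organs, and serpind1.1.2 was steady in both. RS15A stays higher and oncmyk-uba.8.29 turns lower in liver with library totals.

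The organ difference of gold-fed eels was close to that of control eels. In a fit of all 24 libraries 39100 of 50455 contigs passed between the organs of gold-fed eels and 39688 between those of control eels. The same direction was called in both for 36298, which is 92.8% of the first and 91.5% of the second. Opposite directions were called for 27 contigs, all higher in brain in gold-fed eels and higher in liver in control eels. The test of the difference itself was passed by 1 contig (0.00198%), the unnamed contig_02561. It was higher in brain by more in gold-fed eels (-4.15, SE 0.23) than in controls (-1.73, SE 0.20; difference -2.42, edgeR adjusted p 0.0440). Its livers held 0.562 to 0.917 CPM in gold-fed and 1.67 to 7.06 CPM in control eels, without overlap, and its brains 10.1 to 16.6 and 6.38 to 13.2 CPM. The call was lost when any 1 of 10 eels (2 to 6 and 8 to 12) was left out. At an unadjusted p of 0.05 3917 contigs (7.76%) passed, and DESeq2 called 207. In simulated counts with known changes the edgeR test of this difference recovered 15% of 2-fold differences and 72% of 4-fold ones. Unlike these data, the simulated organs had equal mean levels apart from the known changes, so recovery in these data may differ. A contig that did not pass may therefore still differ between the diets.

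No named contig passed in edgeR. The smallest p towards liver was that of agpat3.1.2, which adds fatty acids to phospholipids, with livers of 69.2 to 129.7 CPM (median 87.3) in gold-fed and 24.2 to 42.1 CPM (median 31.4) in control eels. Its brains lay between 32.99 and 43.5 and between 31.1 and 39.9 CPM. The difference was 1.49 (SE 0.21, edgeR adjusted p 0.0720), and it passed without eel 7 (1.62), without the eel as a block (1.504), with limma-voom (1.49) and with DESeq2 (1.502). It came from 1.33 in gold-fed and -0.15 in control eels, and the first of these turned below zero with library totals (-0.70 in the fit of the gold-fed eels). rangrf, a factor of nuclear transport, had an estimated difference of -0.99 (SE 0.16, edgeR adjusted p 0.117) and eomes, a transcription factor of T cells and forebrain, one of -1.80 (SE 0.31, edgeR adjusted p 0.189). The first passed with limma-voom (-0.99) and DESeq2 (-0.98), the second with DESeq2 (-1.79). Mean liver levels in gold-fed and control eels were 15.7 and 28.4 CPM for rangrf and 1.55 and 5.32 CPM for eomes.

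List medians lay close together in most cases. Coagulation stood at 10.73 in gold-fed and 10.43 in control eels, synaptic vesicle release at -5.76 and -5.69, and ribosomal proteins at 3.60 and 3.57. The medians of 11 macrophage contigs (-0.37 and 0.68) and 11 lymphocyte contigs (-0.61 and 0.59) fell on either side of zero with TMM, with 0 single contigs of either list passing the test of the difference.

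**Figure D5:**
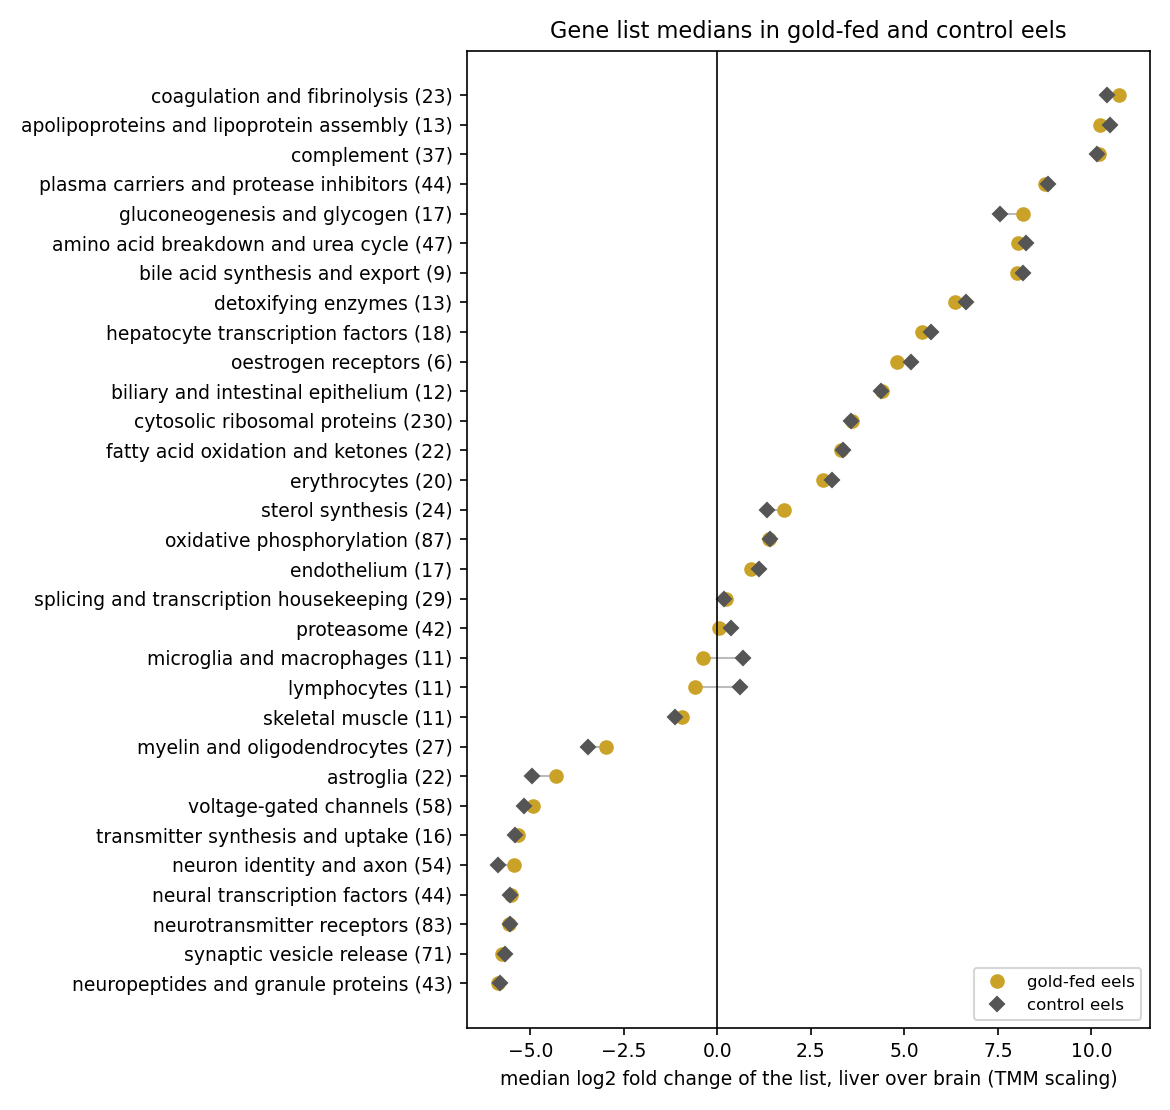
Median log2 fold change, liver over brain, of each gene list (number of contigs tested in brackets) in gold-fed eels (circles) and control eels (diamonds), 6 eels each, from 1 fit of 24 libraries. Most pairs lie side by side, and the macrophage and lymphocyte lists lie on either side of zero, and with library totals all medians would lie about 2 lower, which puts both lists below zero in both diets.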

How the data were processed

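Brain and liver RNA of 12 eels was sequenced in 24 libraries, of which the 12 of gold-fed eels enter the main comparison. The authors deposited 1 table of raw counts of reads on 50640 contigs, which were whole numbers whose totals differed between libraries. The submitters' processing notes name BWA 0.7.12 and SAMtools 1.1. How the contigs were assembled, annotated and counted, and whether by strand, is not given in the sources used, so reads of near-identical contigs, among them copies that share a name (13417 contigs), may be split between them, and overlapping or antisense transcripts cannot be told apart. Gene names are those of the table, and 5061 of 9555 distinct names equal a RefSeq symbol.

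Counts were scaled by TMM, filtered with filterByExpr by group and tested with edgeR 4.0.16 (R 4.3.3) by the quasi-likelihood test, with the eel as a block and Benjamini-Hochberg adjustment over all contigs tested. A change beyond 2-fold was tested with glmTreat on the same fit. Each SE is the absolute log2 fold change divided by the square root of the contig's quasi-likelihood F value. It is not a spread measured directly over the eels. The difference between diets was the interaction of tissue and diet in 1 fit of 24 libraries. Alternatives were library totals, RLE factors, no block, other filters, counts summed by name, limma-voom (3.58.1), DESeq2 (1.42.0) and leaving out each eel. Depth was 69.3 M ± 12.4 reads in liver and 96.6 M ± 15.0 in brain (SD, n = 6). By library totals 3 reads stand for at most 0.0597 CPM in a liver. On the normalised scale they stand for more, as the TMM factors of livers lay between 0.438 and 0.547. Scripts were tested on simulated counts. Python 3.11.15 with numpy 2.4.6 gave the exact permutation tests.

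The labels give the individual of each library, and liver and brain libraries of the same eel deviated together (r from 0.409 to 0.616, against -0.203 to 0.0238 between eels, over 28135 contigs). The comparison and the gene lists were chosen with earlier results of these data known, and lists were matched on contig names. Named contigs were the largest changes in each direction among named contigs averaging 100 CPM or more, the contigs with most reads, up to 5 of smallest p per list and members opposite to their list, all isozyme pairs, the most and least variable or different contigs and metal genes. Part of these is printed. A contig outside this rule is named as chosen after its values were seen.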

Additional observations from a re-analysis of the deposited data

Results flagged for a closer look

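In 18 cases 1 of the 6 livers or 6 brains of the gold-fed eels stood apart from the other 5 in a contig named above, by a gap to the nearest value that was a larger share of the whole range, on the scale of log2(CPM + 0.5), than Dixon's limit for 6 values. Chance gives such a gap in about 1 of 20 groups, and 250 groups were examined, so that chance would give about 12 in groups picked blind. Some of these contigs were picked for their spread or after their values were seen. Contigs of the same library can also move together, so the 18 cases cannot be weighed against the 12.

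The liver of eel 8 was high in apoa2.1.3 (34278 CPM), MTA (2348 CPM), pah.2.2 (1618 CPM), nr1h4.2.3 (315 CPM), gata4 (229.6 CPM), ALDCB (16.9 CPM) and CACNB4 (0.731 CPM). The liver of eel 9 was high in HV320 (1848 CPM) and cbpb1 (816 CPM), and the liver of eel 11 in fdft1.2.2 (214 CPM) and arg2 (12.9 CPM).

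The brain of eel 10 was high in ttr (80.4 CPM) and set apart in hmox2 (40.6 CPM), cnp.3.3 (4.03 CPM) and ptprc.2.6 (2.76 CPM). The brain of eel 12 was low in gpm6a (169.6 CPM) and ALDOC (14.5 CPM) and high in LYSC.1.2 (0.469 CPM).

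Between the diets, contig_02561 had an organ difference lower by 2.42 on the log2 scale in gold-fed than in control eels (difference -2.42, edgeR adjusted p 0.0440). The cause of none of these was tested.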

How the results depend on the processing

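Scaling moved the split of the organ comparison. With library totals 5782 contigs were higher in liver and 39439 in brain, and beyond 2-fold 4255 and 33946. With at least 1 CPM in every library, which drops contigs below that level in any library, 15006 of 18578 contigs passed, 7264 and 7742. The other settings stayed within 1.5 times of the main counts, with 36587 to 37264 calls leaving out 1 eel (16562 to 16851 higher in liver and 19984 to 20413 in brain) and 24921 to 25428 beyond 2-fold (10445 to 10695 and 14428 to 14733). Without the eel as a block, the pairing of liver and brain, 36313 contigs passed and 24815 beyond 2-fold. Of the named contigs the missing block ended 1 call, that of oncmyk-uba.8.29 (0.96), and made 1, that of cbpb1 (6.82), which also passed with limma-voom (3.93).

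The contigs that differed between diets, 1 in the main fit, numbered 0 with library totals and with at least 1 CPM in 6 libraries, 3 with RLE factors, without the block and with counts summed by name, 7 with limma-voom, 207 with DESeq2 and 0 to 2 leaving out 1 eel. The sign of contig_02561 turned in none of the fits run for it.

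With library totals the sign turned for ND5 (-0.11), mpeg1 (-0.37), pygb (-1.91), fabp7.1.4 (-1.51), agpat3.1.2 (-0.70), cbpb1 (-0.52), oncmyk-uba.8.29 (-0.997) and fdft1.2.2 (-0.97). It turned for fabp7.2.4 as well. List medians turned for sterol synthesis (-0.26), endothelium (-1.14), pancreas (-0.52), oxidative phosphorylation (-0.65), proteasome (-1.995) and splicing and transcription (-1.80). With at least 1 CPM in every library pygb (-0.53) and fabp7.1.4 (-0.13) turned, ENOA (-0.79), H33.2.5 (-0.80) and rangrf (-0.78) passed and fdft1.2.2 (0.42) did not. All of these contigs moved down by a similar amount, and TMM factors were computed anew on the contigs kept. Directions of TMM values near zero therefore depend on the filter too. Leaving out eels, pygb lay between -0.038 without eel 9 and 0.193 without eel 11. HV320, at -0.59, was -1.50 without eel 9 and turned without the block (2.40), without eel 11 (0.15) and without eel 12 (0.31). Livers varied more than brains in 78.3% to 84.3% of contigs with other pseudocounts and a filter of 10 CPM. In a liver 3 reads are at most 0.0597 CPM by library totals and more on the normalised scale. Intervals of levels that rest on 3 reads or fewer cover counting error only. The cause of these shifts was not tested.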
